A study of Mus musculus with 1298 samples.

Results

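The cells described here are the neural progenitors and glia-like cells found among Pax7-lineage cells of the mouse embryonic trunk. Pregnant females carrying Pax7CreER (Gaka):R26-stop-EYFP embryos received 1 tamoxifen dose of 75 µg/g at E9.5, so that cells expressing Pax7 at that time, and their progeny, were marked by YFP. Embryos were collected on 3 days (E12.5, E14.5, E16.5), head, limbs and viscera were removed, several embryos were pooled, and YFP-positive cells were sorted and profiled by droplet sequencing (10x, 3′ ends, 1 library a day) or by full-length Smart-seq2 on plates. All groups share the genotype, the tamoxifen dose and the sort, and differ by day and platform. The driver can mark any cell that expresses Pax7 around the time of the dose, whatever its tissue. The share of such cells that was marked is not known here, and no unlabelled control cells were used.

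A cell belonged to the group when its mean log2 expression of Sox2, Sox3, Fabp7 and Slc1a3 (counts scaled to 10000 per cell, plus 1) was at least 0.7 and exceeded its score for each of the other panels in a set of 9 lineage panels. The rule took 4.335% of the 3852 kept cells, namely 130 cells from 10x and 37 from Smart-seq2. These cells are called progenitor-panel cells below. Since the cells were chosen by the measured levels of these 4 panel genes, against those of the other panels, the panel genes' values are a description, and where a fit over all genes included them their result carries no weight. The comparison class was the neuron-panel cells, 729 cells chosen in the same way by Tubb3, Elavl3, Dcx and Rtn1.

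Pax7 is best known for muscle and dermal progenitors of the somite, and it is also expressed in the dorsal neural tube. Neural tube progenitors are radial cells that line the central canal, carry Sox2 and Pax6, keep dividing under Notch signalling and release neurons outward. Later in gestation the same progenitors stop making neurons and produce astrocytes and oligodendrocyte precursors, a change in which the nuclear factor I proteins take part. Fabp7, a brain fatty acid binding protein, and Slc1a3, a glutamate transporter, mark radial glia and young astrocytes.

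Dividing progenitors express a set of mitotic genes whose promoters often carry CCAAT boxes, bound by the factor NF-Y, and a cell cycle homology region, for which the letters TTTGAA are the core. The promoters of 3 such genes are shown because these genes were among those that differed between days in the cells described here. Each is the 250 bases upstream of the RefSeq gene start in GRCm38.p6, on the strand of the gene, and capitals mark CCAAT or TTTGAA on either strand. Ube2c (chr2:164769679-164769928, plus strand) encodes the ubiquitin-conjugating enzyme of the anaphase-promoting complex, Top2a (chr11:99024190-99024439, minus strand) a topoisomerase that untangles sister chromatids, and Ccnb2 (chr9:70421555-70421804, minus strand) a mitotic cyclin.
Ube2c: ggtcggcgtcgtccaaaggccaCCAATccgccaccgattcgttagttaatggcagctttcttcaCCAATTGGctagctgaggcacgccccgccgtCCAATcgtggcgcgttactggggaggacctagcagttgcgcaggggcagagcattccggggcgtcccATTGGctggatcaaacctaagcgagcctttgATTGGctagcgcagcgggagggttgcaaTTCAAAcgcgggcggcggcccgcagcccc
Top2a: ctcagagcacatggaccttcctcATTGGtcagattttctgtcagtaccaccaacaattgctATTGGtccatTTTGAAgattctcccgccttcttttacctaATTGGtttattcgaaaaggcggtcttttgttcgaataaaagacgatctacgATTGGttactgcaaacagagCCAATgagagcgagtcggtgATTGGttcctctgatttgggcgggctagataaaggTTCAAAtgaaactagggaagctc
Ccnb2: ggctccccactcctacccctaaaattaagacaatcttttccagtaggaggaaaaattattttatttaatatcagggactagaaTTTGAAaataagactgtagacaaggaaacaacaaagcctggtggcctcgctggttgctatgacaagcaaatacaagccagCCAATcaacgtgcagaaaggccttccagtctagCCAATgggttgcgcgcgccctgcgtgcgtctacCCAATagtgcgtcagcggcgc

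CCAAT boxes occurred 6 times in the Ube2c window, 6 times in the Top2a window and 3 times in the Ccnb2 window. Of the 17 fixed G2 and M phase genes, 14 had a promoter in the table, and 12 of these (85.71%) held CCAAT, against 37.49% of 27025 gene promoters. TTTGAA was found in 6 of the 14 (42.86%), against 18.26% of all. All 6 of those also held CCAAT, and 6.453% of all promoters held both. Of the 14 S phase genes, 11 were matched, with CCAAT in 8 and TTTGAA in 1. The promoter of Fabp7 (chr10:57784673-57784922, plus strand) is also shown, with its copy of TTGGC, a core of nuclear factor I sites, in capitals.
Fabp7: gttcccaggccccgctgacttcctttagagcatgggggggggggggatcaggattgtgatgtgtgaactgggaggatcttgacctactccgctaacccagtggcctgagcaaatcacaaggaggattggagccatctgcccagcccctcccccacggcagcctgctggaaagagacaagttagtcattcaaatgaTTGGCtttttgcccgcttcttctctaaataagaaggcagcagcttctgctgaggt

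TTGGC on either strand was present in 12 of 21 matched gliogenic and astrocyte promoters (57.14%) and in 45.32% of all promoters. It was more frequent among the G2 and M phase promoters, in 11 of 14 (78.57%), and was in 5 of 11 S phase promoters (45.45%). A TTGGC can overlap a CCAAT read on the other strand, as it does in Ube2c, because both then share the letters TTGG. These letter matches are descriptions of the windows, and binding was not measured.

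Neural cells of this kind were most frequent at E12.5. They were 10.62% of 1017 kept E12.5 cells in 10x (exact 95% binomial interval 8.793 to 12.68) and 8.28% of the E12.5 Smart-seq2 cells (26 cells, interval 5.48 to 11.9). On E14.5 they were 14 of 964 in 10x (1.452%, 0.7962 to 2.425) and 7 cells in Smart-seq2 (2.147%, 0.8676 to 4.374). On E16.5 they were 8 of 940 in 10x (0.8511%, 0.3681 to 1.67) and 4 cells in Smart-seq2 (1.375%, 0.3758 to 3.482). On both platforms the E12.5 interval lay above those of the later days, and the E14.5 and E16.5 intervals overlapped. The intervals cover counting error only, each day and platform is 1 pool, and the share also depends on how many cells of other lineages entered the sort. The E12.5 Smart-seq2 members came mostly from plates 1 and 2, as given below.

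**Figure D1:**
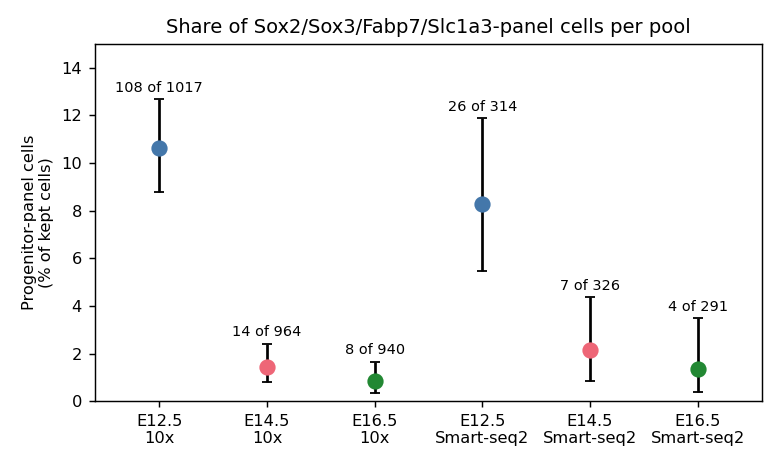
Progenitor-panel cells as a percentage of kept cells (vertical axis) in each pool of day and platform (horizontal axis). Points are shares, bars are exact 95% binomial intervals, and the E12.5 pools (10.62% and 8.28%) stand above the later 4, which lie between 0.8511% and 2.147%.

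Depth bears on the rule. The median total per progenitor-panel cell in 10x was 1660 UMIs on E12.5, 2962.5 on E14.5 and 854 on E16.5, and the Smart-seq2 members had medians of 1470262, 508995 and 612748 estimated counts. In shallow 10x cells a single UMI of 1 panel gene can pass the threshold, and 43 of the E12.5 10x members (39.81%), 2 of 14 on E14.5 and 4 of 8 on E16.5 had only 1 panel gene detected. All 8 of the E16.5 10x members together held 7126 UMIs, so that 1 UMI there equals 140.3 CPM (counts scaled to a total of 1000000 per pool and class). The lowest score inside the rule in each pool ran from 0.796 to 2.214, and the highest score of a cell with this panel on top that fell short was between 0.5664 and 0.6711 in the 4 pools that had one. At E12.5, 18.49% of the 10x cells and 3.185% of the Smart-seq2 cells passed 0.7 for this panel but scored higher for another, and 80.85% of the former and 8 of 10 of the latter went to the neuron panel. Scrublet marked 1 E12.5 member as a doublet. The 10x libraries shared 3 cell barcodes, none of them in a member.

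The Smart-seq2 members did not come evenly from the plates. At E12.5, plate 1 gave 12 of its 64 kept cells, plate 2 gave 9 of 83, plate 5 gave 3 of 40 and plate 6 gave 2 of 38. The 3 further plates gave 0 and held no neuron-panel cells either. Plates 3 to 7 were 1 sequencing batch, with 5 of the 26 members, so the E12.5 Smart-seq2 share came mostly from plates 1 and 2. The plates were sequenced in batches that each held 1 day only, so batch and day cannot be told apart on this platform, as library and day cannot in 10x.

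The panel genes themselves differed in weight between days. Fabp7 was detected in 95.37% of E12.5 10x members and in every member of the other pools, at 2329, 19690 and 17400 CPM on the 3 days in 10x, and at 1287, 5876 and 12540 CPM in Smart-seq2. Slc1a3 was at 71.25, 1219 and 701.7 CPM in 10x and at 115.9, 3278 and 2895 in Smart-seq2. Sox2, the transcription factor that maintains neural progenitors, was detected unevenly. It was found in 59.26% of E12.5, 9 of 14 E14.5 and 1 of 8 E16.5 10x members, and in 15 of 26, 0 of 7 and 4 of 4 Smart-seq2 members. Sox3, its close relative, was found in 6 of the 130 10x members and 4 of the 37 Smart-seq2 members. On the later days the panel scores thus came mostly from Fabp7 and Slc1a3.

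The genes that led in members against the other cells included the neural progenitor factors Pax6, Rfx4 and Gsx1. Ranked by the smallest log2 ratio to all other cells over the 3 pools with at least 10 members (pseudocount 10 CPM), the 15 leading genes were Fabp7, Sox2, Rfx4, Lxn, Gsx1, Pax6, Wnt7b, Pgpep1, Itgb8, Msx2, Foxb1, Sox6, Wscd1, Ednrb and Phyhipl. This ranking is a description, since the rule that chose the cells also shaped it. Rfx4, a factor of neural tube patterning, was at 204.9 CPM in E12.5 10x members against 37.24 in the other cells, at 478.2 against 50.15 in Smart-seq2, and at 264.2 against 1.494 in E14.5 10x. Pax6, the paired-box factor of radial glia, was at 102.4 against 19.74, 71.91 against 7.95 and 203.2 against 2.988 CPM in the same pools. Ednrb, an endothelin receptor, was at 129.1 against 34.26, 749 against 32.39 and 467.4 against 1.826. In each of these pools the members were higher.

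Against the neuron-panel cells, the leading genes on the member side were Fabp7, Sox2, Phgdh, Gja1, Id3, Rfx4, Lxn, Sypl, Msx2 and Ptn. Phgdh makes serine, Gja1 is a gap junction protein of radial cells and Id3 blocks differentiation factors. The genes lower in members were led by the neurofilament and cytoskeleton genes Ina, Stmn2, Nefl, Mapt and Dcx, together with Npy, Ank3, Thsd7a, Celf4 and Myt1l. Ina had a log2 ratio of -3.61, -6.395 and -6.665 in the 3 pools. The summed level of 18 neuronal differentiation genes was 1015 CPM in E12.5 10x members against 5494 in neuron-panel cells, and 520.6 against 6855 in Smart-seq2.

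The summed levels of mesenchyme and muscle genes were lower in members than in the remaining classes of each pool. The summed level of 11 mesenchyme genes ran from 33.02 CPM in E12.5 Smart-seq2 members to 391.9 in E12.5 10x members, apart from 1123 CPM in E16.5 10x members. The remaining classes of the same pools were between 2165 and 37150 CPM. The high E16.5 10x value goes with the shallowest members, 5 of 8 of which had a mesenchyme UMI, and its part in the E16.5 values was not tested. The muscle list reached at most 303.1 CPM in members, against 564 to 3757 in the remaining classes. Per Smart-seq2 cell, however, its median was higher in members than in the remaining classes at E14.5, where the remaining classes had 261.7 CPM, and at E16.5 (312.1 against 123.9 CPM). The pool level of E14.5 Smart-seq2 members was mostly Cdh4, a cadherin (290.3 CPM), and that of E16.5 was mostly Cdh4 and the integrin Itga7 (140.1 and 146.6), while Myod1, the defining muscle factor, was at 0 in both. The endothelium list in Smart-seq2 members was lower than in the remaining classes at E12.5 and higher on the later days, at 146.5, 192.8 and 113.8 CPM on the 3 days against 190.5, 100.8 and 60.37. Pecam1, an adhesion molecule, held most of it (142.8, 192.6 and 92.47 CPM), and the endothelial genes Cdh5 and Emcn were at 0 in every member. The blood list was at 203.2 CPM in E14.5 10x members, with an exact 95% counting interval (97.45 to 373.7) that holds the level of the remaining classes, and at 0 in all Smart-seq2 members, and the macrophage, melanocyte and epidermis lists stayed at or under 9.688 CPM in members. The 11 Schwann cell and neural crest glia genes summed to 48.99 CPM at most, and Sox10, their defining factor, was found in 1 E12.5 10x member, 1 of 26 E12.5 Smart-seq2 members and in no member of the later days. With 14 and 8 cells in the later 10x pools, a count of 0 allows 60.96 CPM at E14.5 and does not limit the gene closely.

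Among the 14 factors of dorsal and intermediate neural tube domains, Pax3 was the most widely detected in E12.5 members of both pools. Pax3, expressed throughout the dorsal tube, was found in 54 E12.5 10x members (365.2 CPM) and in 25 of 26 Smart-seq2 members (419.2 CPM). Gsx1, a homeobox factor of dorsal progenitors, was found in 27.78% (164.8 CPM) and in 16 of 26 (221.4 CPM).

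Factors of the most dorsal domains were found in fewer members than Pax3, and ventral genes other than Ntn1 were at or near 0. Atoh1, the factor of the domain next to the roof plate, had 0 counts in every pool, which at E12.5 in 10x allows up to 13.36 CPM. Olig3, of the most dorsal domains, was found in 2 10x and 5 Smart-seq2 members at E12.5, and Msx1 in 7 and 6. Dbx1 and Dbx2, of the domains at the dorsoventral boundary, were found in 1 10x member each and in no Smart-seq2 member at E12.5. The ventral gene Nkx6-2 was at 0 in every pool, Nkx6-1 had 0 counts in 10x and at most 0.3701 CPM in Smart-seq2, and Ntn1, which the ventricular zone also expresses, was the only gene of that list measured above 0.3701 CPM. Of the roof plate genes, Msx2 was found in 14 E12.5 10x members (62.35 CPM) and in 18 of 26 Smart-seq2 members (86.13 CPM), and Gdf10 was highest in E16.5 10x members (280.7 CPM, in 1 cell). The others stayed at or under 20.32 CPM.

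Pax7 itself, the gene that drives the label, was found in 11 E12.5 10x members (10.19%, 53.44 CPM) and 13 of 26 Smart-seq2 members (16.63 CPM). On E14.5 it was found in 0 of 14 and 1 of 7, and on E16.5 in 0 of 8 and 0 of 4. Of the E12.5 members with Pax7, 6 of the 11 in 10x and all 13 in Smart-seq2 also had Pax3. Because 10x detection depends on depth, each 10x cell was also thinned to 1000 UMIs, over the 3 days together, with 29 of the 130 members and 40 neuron-panel cells left out as shallower. Before thinning, Pax3 was found in 46.15% of members, Gsx1 in 24.62%, Pax6 in 20.77% and Pax7 in 8.462%, and in neuron-panel cells the same genes were found in 23.65%, 11.02%, 9.218% and 7.816%. Among the members thinned in this way, Pax3 was found in 30.69%, Gsx1 in 14.85%, Pax6 in 8.911% and Pax7 in 3.96%. In thinned neuron-panel cells the shares were 10.02%, 3.922%, 3.05% and 3.922%. At equal depth the first 3 of these 4 genes were more often detected in members, and Pax7 was about as frequent in both classes. No test was made, as the rule chose both classes.

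Hox genes are expressed in order along the body axis. Their summed level was 3015 CPM in E12.5 10x members and 1136 in Smart-seq2, against 5183 and 1512 in neuron-panel cells. Within the Hox total of E12.5 10x members, paralog group 9 held 23.34%, group 5 14.48%, group 8 12.7%, group 2 11.82% and group 10 2.068%. In E12.5 Smart-seq2 members the profile was different, with 18.34% in group 3, 16.67% in group 5, 16.56% in group 4, 12.35% in group 9 and 2.83% in group 8. The platforms thus gave no common leading group. Smart-seq2 shares also depend on transcript length, and the part of this in the difference was not tested. Groups 11 to 13 each held at most 0.1477% in members where they were measured. Smart-seq2 had 0 genes of group 13 and 1 of group 12, and the E14.5 and E16.5 10x members had 79 and 11 Hox UMIs in all. The head and the limbs had been removed before the sort. Of the 17 Hox genes with enough counts, none was at least 2-fold different between E12.5 and E14.5 on both platforms in the same direction.

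The day comparison asked how the cells taken by the rule differ between E12.5 and E14.5, whether or not they are progenitors on both days. With 1 pool for each day and platform, and under 10 members in the E14.5 Smart-seq2 pool, no fit with at least 10 members per sum had a residual degree of freedom. A fit with at least 4 was tried and called unchanged genes in simulated data, so it was not used. The difference is given as values with a descriptive rule chosen after they were seen. A gene counts as higher or lower when log2((CPM + 10)/(CPM + 10)) was at least 2-fold in the same direction on both platforms, among the 4242 genes with at least 10 UMIs in the 10x members of these days. By this rule 4.88% of them were higher at E14.5 and 8.35% lower. The median log2 ratio over all of them was -0.122 in 10x and -0.236 in Smart-seq2. In neuron-panel cells the same rule gave 1.27% higher and 1.91% lower of 9796 genes, which were summed over more cells. A gene with nearly all its UMIs on 1 day passed the filter only through that day and had to differ. The gene lists, too, were chosen with earlier results of these data known. The counts over lists below are therefore descriptions. In pooled cells, a lower level cannot be told apart from fewer cells that express the gene.

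Astrocyte genes were higher at E14.5. Of the 25 fixed gliogenic and astrocyte genes 19 had enough counts, and 14 of these were higher by the rule and 0 lower, against the 4.88% of all genes given above. Their median log2 ratio was 3.19 in 10x and 2.822 in Smart-seq2. The 6 others (Aqp4, Gfap, S100b, Tnc, Acsbg1 and Mlc1) had too few UMIs to be counted.

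Aldoc, the brain isoform of the glycolytic enzyme aldolase (GRCm38 chromosome 11, 78322968 to 78327781, plus strand), was at 4.453 CPM in E12.5 10x (1 UMI in 1 cell) and at 0 in E12.5 Smart-seq2. It was at 1849 CPM in 9 of 14 and 2416 CPM in 6 of 7 members at E14.5. Its 10x ratio was 415.2 with an exact 95% counting interval of 72.68 to 16580. On E16.5 it stood at 1965 and 3678 CPM.

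Bcan, a proteoglycan of the neural matrix (chromosome 3, 87987531 to 88000230, minus strand), had no count in any E12.5 member. On E14.5 it was at 345.5 CPM in 5 of 14 10x members and was found in 4 of 7 Smart-seq2 members, at least 25.86-fold higher in 10x against the floor of 3 counts per library. At E16.5 it was at 280.7 and 1433 CPM.

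Ndrg2, an early astrocyte gene, was at 0 and 7.915 CPM at E12.5 and at 1036 and 1619 CPM at E14.5, in 12 of 14 and 7 of 7 members. Its 10x level was at least 77.57-fold higher. Apoe, the lipid carrier that astrocytes secrete (chromosome 7, 19696109 to 19699188, minus strand), was at 22.27 and 18.85 CPM, then at 1077 and 417.6, and then at 1403 and 4125 CPM in the 10x and Smart-seq2 pools of the 3 days. The 10x ratio of E14.5 to E12.5 was 48.37 (19.48 to 155.1).

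Other higher genes of the list covered several astrocyte functions. Aldh1l1, of folate metabolism, went from 0 and 1.281 to 203.2 and 428.8 CPM. Slc1a2, the second glutamate transporter, went from 44.53 and 44.86 to 142.3 and 240.2 CPM, and Glul, which turns glutamate into glutamine, from 44.53 and 44.75 to 690.9 and 441.9. Dbi, which binds acyl-CoA, was already at 1096 and 418.9 CPM at E12.5 and reached 10610 and 2712, a 10x ratio of 9.683 (8.305 to 11.31). Hopx, Cst3, Ttyh1, Ptprz1 and Nfix were also higher by the rule.

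The nuclear factor I genes were not alike. Nfix was at 13.36 and 5.95 CPM at E12.5 and at 243.9 and 185.3 CPM at E14.5, higher by the rule. Nfia was at 276.1 and 224.7 CPM at E12.5 and at 548.7 at E14.5 in 10x, and Nfib at 338.5 and 256.8 and then at 609.6 and 1201. Neither passed the rule on both platforms, with Nfia just under it in 10x (log2 0.965). All 26 of the E12.5 Smart-seq2 members already held Nfia, and all 26 held Sox9, the factor that precedes it. Sox9 stayed between 347.4 and 669.3 CPM in all 6 pools, and Fgfr3 between 93.52 and 771.7 CPM.

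A further list of transport, metabolism and matrix genes of glia pointed the same way, with 9 of 14 counted genes higher and 0 lower, against 4.88% and 8.35% of all genes. Ptn, a secreted growth factor, was at 1447 and 715.2 CPM, then 17540 and 3812, then 16560 and 10260, a 10x ratio of 12.12 (10.65 to 13.81) between the first 2 days. Sparcl1, a matrix protein, was at 22.27 and 44.27, then 1260 and 1180, then 3087 and 6261 CPM. Mt3, the brain metallothionein, was at 0 in 10x at E12.5 and at 751.9 CPM at E14.5, at least 56.28-fold higher, with a Smart-seq2 log2 ratio of 3.597. Phgdh and Psat1 of serine synthesis, Mt1, Sparc, Cspg5 and Ncan were the other 6. Fabp5, Ckb, Mt2, Mdk and Ednrb did not pass on both platforms.

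**Figure D2:**
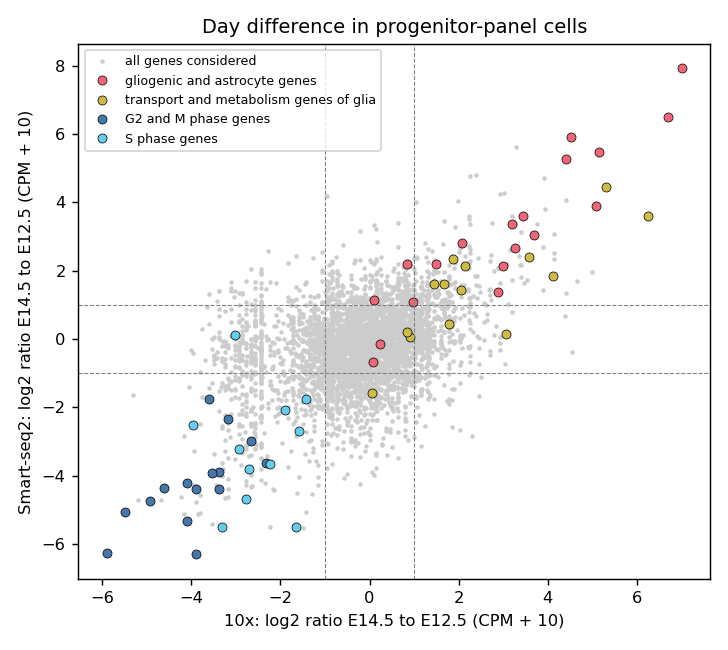
Log2 ratio of E14.5 to E12.5 CPM (pseudocount 10) in progenitor-panel cells, 10x on the horizontal and Smart-seq2 on the vertical axis, 1 point for each of 4242 genes, with dashed lines at 2-fold. The glial genes lie to the upper right (14 of 19 and 9 of 14 past both lines) and the S phase and G2 and M genes to the lower left (10 of 11 and 15 of 15).

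Genes of the dividing cell were lower at E14.5. All 15 counted G2 and M phase genes were lower by the rule, against 8.35% of all genes, with median log2 ratios of -3.888 in 10x and -4.373 in Smart-seq2. In 10x 14 of the 15 had no UMI at E14.5. These 14 passed the filter only through E12.5 and had to be lower on that platform, so the count of 15 is a description. With the 14 set at 3 counts the 10x median was -1.179.

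Top2a (chromosome 11, 98992943 to 99024189, minus strand), whose promoter is shown above, was at 583.4 CPM in 51.85% of E12.5 10x members and at 903.7 CPM in 19 of 26 Smart-seq2 members. At E14.5 it had 0 counts in 14 members and 1.862 CPM in 1 of 7 members, at least 9.569-fold lower in 10x. Ube2c was at 440.9 and 321.8 CPM at E12.5 and at 0 in both E14.5 pools, at least 7.232-fold lower in 10x. Ccnb2 was at 160.3 and 175.2 CPM and then at 0 on both platforms. Hmgb2, a chromatin protein that is abundant in dividing cells, was the only one of the 15 still seen at E14.5 in 10x, going from 1986 to 386.1 CPM, a 5.144-fold difference (3.255 to 8.626), and in Smart-seq2 from 725 to 49.28.

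S phase genes behaved likewise, with 10 of 11 lower, against 8.35% of all genes. Gins2 was the exception (71.25 to 0 CPM in 10x but 53.72 to 58.57 in Smart-seq2). Rrm2, of nucleotide synthesis, was 8.218-fold lower in 10x (2.197 to 69.11) and went from 1290 to 40.74 CPM in Smart-seq2. Pcna, the polymerase clamp, was 9.204-fold lower in 10x (1.564 to 372.1) and went from 535.4 to 28.86 CPM in Smart-seq2. The 6 Mcm helicase genes were all lower. The median of the list was -2.7 in 10x (-1.572 with the 4 genes at 0 set at 3 counts) and -3.21 in Smart-seq2.

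Among regulators of cycle entry, Ccnd1 went from 570 and 638.2 to 101.6 and 85.79 CPM and Ccnd2 from 307.3 and 531.6 to 60.96 and 15.83, both lower by the rule. The inhibitor Cdkn1b was higher, from 31.17 and 38.63 to 81.29 and 112.2 CPM. Ccnd3, Cdkn1c, Btg2 and Gadd45g were neither. The same G2 and M list in neuron-panel cells summed to 1574 and 1628 CPM at E12.5 and to 246.4 and 31.69 at E14.5, so these genes were lower at E14.5 in that class too.

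Single cells showed how far the days overlapped. The summed glial list per E12.5 member had a median of 2481 CPM and a highest value of 8872 in 10x, and 2587 and 6051 in Smart-seq2. At E14.5 the medians were 20780 and 14030, and 10 of 14 and 7 of 7 members lay above the highest E12.5 member of their platform. The G2 and M list had medians of 4650 and 2365 CPM at E12.5, and its highest E14.5 members had 1569 and 271.3 CPM. In 10x 77.78% of E12.5 members, and in Smart-seq2 17 of 26, lay above the highest E14.5 member, while the remainder overlapped with the E14.5 range.

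**Figure D3:**
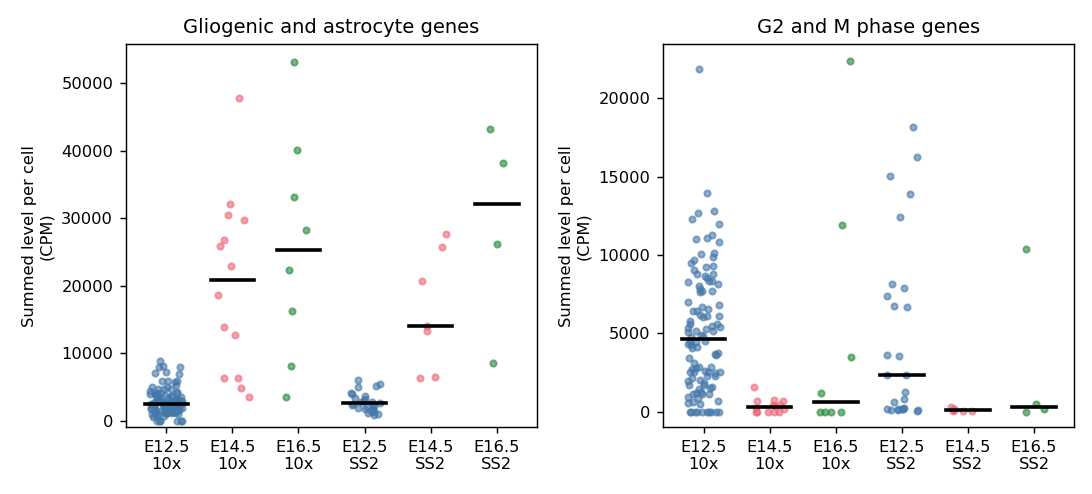
Summed level of the 25 gliogenic and astrocyte genes (left) and the 17 G2 and M phase genes (right) in each progenitor-panel cell, in CPM, by pool (SS2 is Smart-seq2). Points are cells, bars are medians, and the glial medians in 10x are 2481 CPM at E12.5 and 20780 at E14.5, while at E16.5 a pair of 10x cells (22340 and 11890 CPM) and 1 Smart-seq2 cell (10360 CPM) stand high for G2 and M genes.

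The Smart-seq2 batches within a day spread less than the days for the glial genes. The glial list summed to 2407, 2943 and 4443 CPM in members of the 3 E12.5 batches (12, 9 and 5 cells) and to 11320 and 19390 in the 2 E14.5 batches (3 and 4 cells). The G2 and M list summed to 7142, 1815 and 7960 CPM at E12.5 and to 165.9 and 118.7 at E14.5. No batch held cells of more than 1 day.

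Of the 12 neural progenitor genes outside the rule, 0 were higher and 1 was lower, shares near those of all genes (4.88% and 8.35%). The lower gene was Zic1, a zinc finger factor of the dorsal tube, at 423.1 and 72.61 CPM at E12.5 and 142.3 and 12.83 at E14.5. Vim, the intermediate filament of radial cells, was at 2049 and 1238 and then 3048 and 2275 CPM. Nes, the other such filament, was at 124.7 and 460.6 and then 101.6 and 355.2. None of the 6 counted dorsal domain factors was called in either direction, and the others of the 14 had too few UMIs to be counted. The summed level of the 14 was lower at E14.5 all the same. In 10x members it was 1211 CPM (1072 to 1364) at E12.5 and 386.1 (232.5 to 603) at E14.5. In Smart-seq2 members it was 912.6 and 701.2 CPM. Pax3 was at 182.9 and 318.3 CPM at E14.5.

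In the Notch pathway, which holds progenitors in place, 3 of 15 counted genes were higher and 1 lower, against 4.88% and 8.35% of all genes. The share lower was thus near that of all genes. The receptors Notch2 (89.07 and 43.05 to 223.5 and 360.6 CPM) and Notch3 (35.63 and 45.32 to 101.6 and 164.6) and the ligand Dner (75.71 and 114.7 to 264.2 and 1358) were higher, and the feedback gene Nrarp (227.1 and 43.79 to 101.6 and 14.43) was lower. Notch1 and the ligand Dll1 were not called. The target Hes5 went from 66.8 to 365.8 CPM in 10x, in 3 of 14 cells, and from 911.7 to 119.9 in Smart-seq2, so no direction was drawn.

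Of 16 genes tied to developmental timing, 9 were counted, with 4 lower and 1 higher, against 8.35% and 4.88% of all genes. Igf2bp1, an RNA-binding protein of early progenitors, had a 10x log2 ratio of -1.63 and went from 576.5 to 110.3 CPM in Smart-seq2. Hmga1 went from 80.16 and 562.8 to 0 and 23.18. With its 0 in E14.5 10x set at 3 counts, Hmga1 was only 1.315-fold lower there, short of the rule. Fst went from 204.9 and 46.55 to 40.64 and 0.5309, a 5.04-fold difference in 10x (1.318 to 42.87). Ezh2, a histone methyltransferase, went from 302.8 and 209.7 to 40.64 and 45.16, or 7.451-fold in 10x (1.985 to 62.77). The 10x median of the list was -1.632, and -0.96 with the gene at 0 set at 3 counts. Zbtb20, a zinc finger factor linked to astrocyte formation, went from 142.5 and 171.1 to 345.5 and 478.7. Among 16 counted signalling genes, Gli3, which limits hedgehog signalling, was lower (155.9 and 172.4 to 20.32 and 27.7 CPM) and the other 15 were not called. That share was near the 8.35% of all genes. Tfap2b, of dorsal interneurons, was lower, from 169.2 and 86.97 to 0 and 3.492. The neuron panel gene Rtn1, an endoplasmic reticulum protein, was higher, from 89.07 and 66.76 to 650.3 and 411.6, whereas the other 3 neuron panel genes were not.

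**Figure D4:**
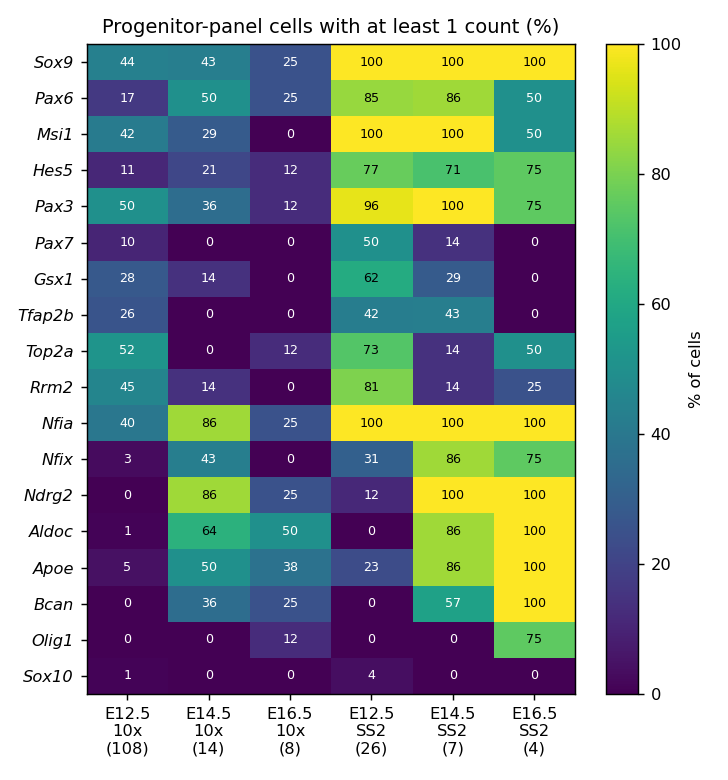
Percentage of progenitor-panel cells with at least 1 count of each gene (rows) in each pool (columns, number of cells in parentheses, SS2 is Smart-seq2). Aldoc, Ndrg2 and Bcan are in at most 12% of E12.5 cells and in 36% to 100% of E14.5 cells, and Olig1 appears in the E16.5 pools only.

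At E16.5 the 8 and 4 members were too few for any fit, and their values are given as such. The glial list stayed high, at a median of 25300 CPM per cell in 10x and 32180 in Smart-seq2. Gfap, the astrocyte filament, was found in no earlier member and in 2 of 4 Smart-seq2 members (106.4 CPM). Olig1, a factor of the oligodendrocyte lineage (chromosome 16, 91269772 to 91271933, plus strand), had no count in any member of the earlier days and was found in 1 of 8 10x members (2681 CPM in that cell) and 3 of 4 Smart-seq2 members (1203, 16.83 and 3800 CPM). Olig2, measured in Smart-seq2 only, was found in 3 of 4 members at 53 CPM. Sox10, Cspg4 and Gpr17 were at 0 where measured, so the set of precursor genes was incomplete. Pdgfra, which is also on the mesenchyme list, was found in 1 10x member. That cell had no Olig1 count and had 2320 CPM of the mesenchyme gene Col1a1.

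The mitotic genes at E16.5 sat in few cells. The 10x member with Olig1 had 22340 CPM of the G2 and M list and 1787 of Top2a, and another 10x member without Olig1 had 11890 of the list. The Smart-seq2 member with the most Olig1 had 10360 CPM of the list, 1100 of Top2a and 214.2 of Mki67, with 8572 CPM of the glial list, the lowest of the 4. The 3 other Smart-seq2 members had between 3.904 and 467.1 CPM of the G2 and M list. The pool values of 5192 and 3314 CPM for that list at E16.5 rest on these cells.

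The one comparison that could be fitted was whether the day difference in progenitor-panel cells differed from that in neuron-panel cells of the same pools. Counts were summed per pool and class, and the difference was fitted over the 7 sums with at least 10 cells by edgeR's quasi-likelihood test, with the pool as a term. Only 1 residual degree of freedom was left. The E14.5 contrast between classes rests on 1 member sum, that of the 10x library, because the Smart-seq2 pool had 7 members, so it has no replicate and the p-values rest on the spread between the platforms at E12.5. Of 11941 genes tested, 19 passed an adjusted p of 0.05 (0.159%), 14 with a larger rise in members (0.117%) and 5 with a smaller one (0.0419%), and 799 had an unadjusted p under 0.05. Fabp7, a gene of the rule, is among the 19 and the 14. The number called depended on the settings and was lower at a score of at least 1. It was higher with DESeq2, without a filter on low counts, without marked doublets and with at least 2 panel genes. The score and panel gene settings used each class's own panel, and doublets were dropped from both classes, 1 of them a member. In Smart-seq2 alone the difference had the same sign for the called genes, Fabp7 included, except Efnb3 and Sox11, where it was opposite (CPM with the pseudocount of 10, no test). Of the sums behind that difference, only the E14.5 members were outside the fit. The others were in it, so the signs are not an independent check.

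The genes with a larger rise in members included 7 from the glial lists. On the gliogenic list 4 of 23 tested genes had a larger rise in members and 1 a smaller one, and on the glial transport list 3 of 19 had a larger rise. Apoe differed by 5.40 ± 0.87 on the log2 scale, with 1077 CPM in E14.5 10x members against 12.8 in neuron-panel cells. Here and below, the value after ± was worked back from the log2 difference and the test's F statistic. It is not a spread between replicates. Ttyh1, a chloride channel of astrocytes, differed by 4.58 ± 0.86 (p = 0.016, adjusted by edgeR) and was lower at E14.5 in neuron-panel cells, from 28.14 to 9.602 CPM in 10x. Phgdh differed by 4.12 ± 0.68, Sparcl1 by 3.88 ± 0.70, Glul by 3.22 ± 0.64, Dbi by 3.09 ± 0.43 and Ptn by 2.29 ± 0.40. Fabp7 differed by 5.04 as well, but it was used to choose the members. Fabp7 and Slc1a3 were both higher in members at E14.5 than at E12.5, and their part in the other differences was not tested.

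Nfib ran the other way, with a difference of -2.79 ± 0.51 (edgeR adjusted p = 0.013). It was higher at E14.5 in both classes, from 338.5 to 609.6 CPM in 10x members and from 180.6 to 1280 in 10x neuron-panel cells, so the rise was larger in the neurons. Sox11, a factor of immature neurons, differed by -2.94 ± 0.49, going from 3345 to 325.1 CPM in members against 4615 to 3184 in neuron-panel cells of the 10x pools. In Smart-seq2 it went from 2455 to 911.1 CPM in members and from 4571 to 1347 in neuron-panel cells, a difference of the opposite sign (0.33 on the log2 scale). Stmn1, a microtubule regulator, was at 1559 and then 650.3 CPM in members and at 2320 and then 4321 in neuron-panel cells. Sox11, Stmn1, Jpt1 and Ptma, and the upward genes Acot1, Gfod2, Efnb3, Nkain4, Ppp2r2b and Psd2, belong to no fixed list and are named because they passed, that is, after their values were seen.

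**Figure D5:**
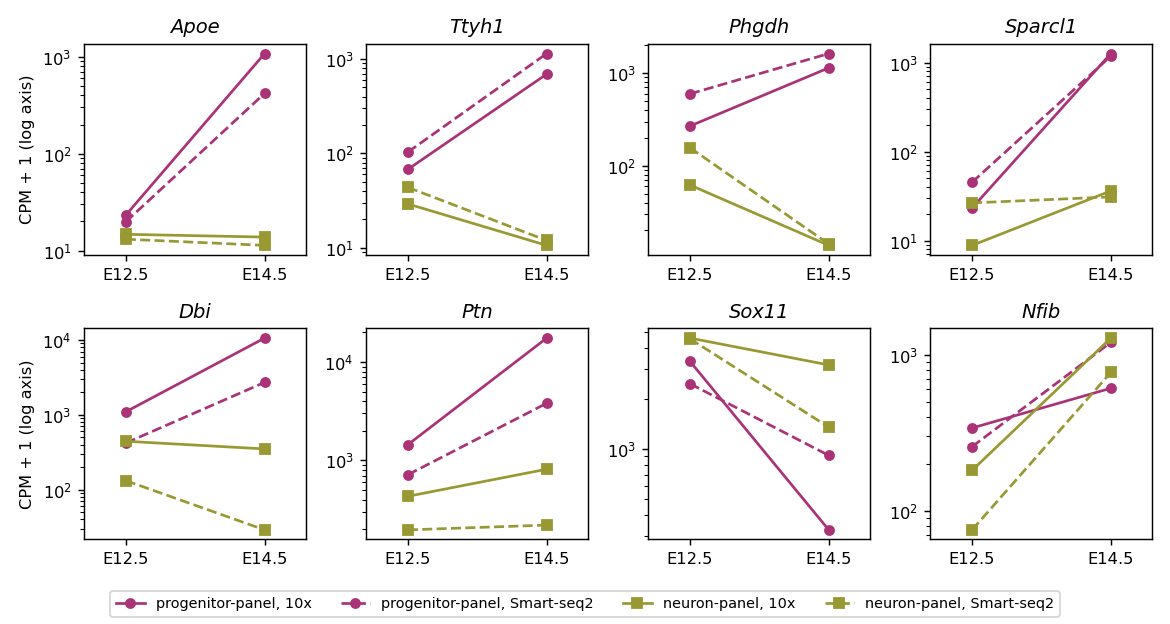
CPM plus 1 on a log axis at E12.5 and E14.5 for 8 of the 19 genes whose day difference differed between classes, in progenitor-panel cells (circles) and neuron-panel cells (squares), with solid lines for 10x and dashed lines for Smart-seq2. Each point is 1 pool, and Apoe reaches 1077 and 417.6 CPM in the progenitor-panel cells while it stays between 10.33 and 13.74 in the neuron-panel cells.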

How the data were processed

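The authors deposited 10x UMI counts per gene and cell (Cell Ranger 3.0.1 on GRCm38.p6, mm10 in the processing notes) and Smart-seq2 expected counts per gene (kallisto 0.44.0 with tximport on Ensembl transcripts plus YFP). The bulk table was not used. Of 3916 deposited cells, 3852 with at most 8% mitochondrial counts were kept. Members, gene lists and the 2-fold day rule were chosen with earlier results of these data known. Counts of members were summed per pool of platform and day and scaled to CPM. Smart-seq2 counts were rounded for fits, are not UMIs, and are full-length, so levels were mainly compared between samples. Where genes were set side by side within Smart-seq2 sums, as for the Hox groups, the shares also depend on transcript length.

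The class-by-day difference was tested with edgeR 4.0.16 (TMM, filterByExpr, Benjamini-Hochberg) in R 4.3.3, with DESeq2 1.42.0 as an alternative. The test was also run on simulated sums that shared a mean profile and a dispersion, without differences between platforms, pools or classes. That simulation therefore cannot vouch for p-values that rest on the spread between platforms. A day fit with at least 4 cells per sum called unchanged genes in simulated data and was not used. Doublets were marked with Scrublet (scanpy 1.11.5) per 10x library, and thinning used 1000 UMIs. Named genes were the leading genes of members and the fixed lists. Some genes of these lists are not reported here by name. The part of the naming rule for genes past a day test named none. Each pool is 1 sample of several embryos, so p-values measure only the spread between these sums, and those of a pool share its library.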

Additional observations from a re-analysis of the deposited data

Results flagged for a closer look

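Progenitor-panel and neuron-panel cells had different day effects (E14.5 against E12.5) for 19 genes by an interaction term over 7 sums, tested in edgeR and adjusted over all genes. The log2 differences, members minus neuron-panel cells, were 9.93 for Psd2, 9.32 for Ppp2r2b, 6.28 for Nkain4, 5.40 for Apoe, 5.04 for Fabp7 (a gene of the rule that chose the cells, so a description only), 5.04 for Efnb3, 4.64 for Gfod2, 4.58 for Ttyh1, 4.12 for Phgdh, 3.94 for Acot1, 3.88 for Sparcl1, 3.22 for Glul, 3.09 for Dbi and 2.29 for Ptn. They were -2.00 for Ptma, -2.25 for Stmn1, -2.79 for Nfib, -2.94 for Sox11 and -3.12 for Jpt1. Psd2 and Ppp2r2b were at 0 in 1 of the E12.5 member sums each, so their fitted sizes depend on the prior count. Efnb3 was at 386.1 CPM in 10x and 30.03 in Smart-seq2 members at E14.5, the latter not in the test. In Smart-seq2 alone the difference had the opposite sign for Efnb3 and Sox11. Sequencing depth, day and library were not separable in this design.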

How the results depend on the processing

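No paired analysis was possible because the replicate numbers that the Smart-seq2 groups share only name single cells in accession order, and each day has 1 pool per platform. The class-by-day test keeps the pool as a term. Without a filter on low counts the day rule called 637 genes higher and 799 lower, with about the same percentages. With 4-fold in place of 2-fold, an alternative added after the data were seen, 1.34% were higher and 2.9% lower. Under the other alternatives the percentages of 4.88 and 8.35 moved by less than 1.5 times, with 11.0% lower at a pseudocount of 1 CPM. Neither platform could be left out, since the rule needs both. The class-by-day test called 19 genes, and 54 with members of at least 2 panel genes, 36 with DESeq2, 40 without a filter, 43 with doublets removed (1 member fewer) and 11 with a score of at least 1; the cause was not tested. The neuron-panel sum of E14.5 Smart-seq2 could be left out, but it is alone in its pool and carries no information on the class-by-day difference. Leaving it out is therefore no check of the result. The other 6 sums could not be left out, nor could 20 cells per sum be required, as no residual degree of freedom remained. Of the 19 genes, 17 stayed past the threshold with DESeq2 and 11 with a score of at least 1, and no sign changed. The share of members was 6.391% in E12.5 10x with at least 2 panel genes, 4.777% in E12.5 Smart-seq2 with a score of at least 1 and 0.235% in E16.5 10x after thinning, where 2 of 851 cells remained. Of the 15 leading genes 13 stayed among the leading with at least 2 panel genes. In the 10x members with at least 1000 UMIs (29 of 130 left out), thinned to that depth, detection lay below the interval of all members, at 8.911% for Pax6, 30.69% for Pax3, 3.96% for Pax7, 14.85% for Gsx1, 27.72% for Sox9, 24.75% for Nfia, 5.941% for Aldoc, 0.0% for Sox10 and 34.65% for Top2a. With 8 members of 7126 UMIs in all at E16.5, only large levels could be seen.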
